A study of Mus musculus with 2 samples.

Results

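The cells described here are vascular smooth muscle cells of the mouse choroid and sclera, found by their contractile genes in single-cell RNA libraries of the retinal pigment epithelium (RPE) layer. A cell was taken when Acta2, Tagln and Myh11 together had at least 20 unique molecular identifiers (UMIs, tags that mark single RNA molecules) and at least 10000 of every 1000000 UMIs of the cell (CPM). Cells with 10 or more UMIs of the RPE gene Rpe65, or with 2000 CPM or more of the fibroblast gene Dcn, were left out. This rule found 896 of 35627 cells that passed the limits on quality. They were 618 of 20189 cells (3.06%, 2.83 to 3.31) in the Control library and 278 of 15438 (1.80%, 1.597 to 2.02) in the Dox library. All intervals here are at 95% and cover counting error alone (Clopper-Pearson for shares, exact Poisson for levels in CPM, exact conditional binomial for ratios).

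The study asked how the RPE responds to a low dose of doxorubicin (Dox), a drug that damages DNA. C57BL/6J mice of 3 months received 1 µl of PBS (Control) or 1 µl of Dox at 100 ng/µl under the retina, and the RPE, choroid and sclera were taken apart 7 days later. A library held the pooled cells of 5 mice (10 eyes), and there was 1 library for Control and 1 for Dox, with no replicate. No test between the conditions is possible with this design, and treatment, injection, dissection and library cannot be told apart.

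Smooth muscle cells wrap arteries and arterioles and set their width by contracting. Calcium that enters the cell or leaves its stores activates myosin light chain kinase through calmodulin, and the phosphorylated light chains let smooth muscle myosin pull on actin. Nitric oxide from the endothelium opposes this through cGMP. The genes of the contractile apparatus are driven by serum response factor with its partner myocardin, which act on a DNA element called the CArG box.

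The CArG box was looked for in RefSeq promoters of build GRCm38.p6, each running from 250 bases before to 50 bases after a gene's start. The box was searched as CC, then 6 bases of A or T, then GG. This pattern is its own reverse complement, so a match counts for both strands. A box was present in 488 of 27025 genes of the promoter table (1.81%). Among 6399 matched genes that had enough UMIs in the smooth muscle cells, 117 had a box (1.83%). Of the 40 genes in a list of the contractile apparatus, 35 had a promoter in the table, and 6 of these had a box (17.1%), namely Cnn2, Filip1l, Ldb3, Myl6, Myl9 and Vcl. Stretches around 3 of the boxes are printed because they show the element next to contractile genes that these cells held, with the box in capitals. The Myl9 stretch (chr2:156775253-156775362, plus strand) and the Vcl stretch (chr14:20929148-20929230, plus strand) lie upstream of their genes. The Filip1l stretch (chr16:57549130-57549239, plus strand) lies in an intron of Filip1l in GENCODE, where Cmss1 runs on the opposite strand.
Myl9: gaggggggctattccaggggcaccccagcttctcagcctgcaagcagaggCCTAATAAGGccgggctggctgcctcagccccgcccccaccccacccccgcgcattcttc
Vcl: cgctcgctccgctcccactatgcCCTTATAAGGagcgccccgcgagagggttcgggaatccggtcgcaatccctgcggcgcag
Filip1l: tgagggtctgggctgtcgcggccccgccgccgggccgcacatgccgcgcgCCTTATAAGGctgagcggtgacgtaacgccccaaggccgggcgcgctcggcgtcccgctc
The first base of the box stood 161 bases before the start of Myl9, 227 bases before that of Vcl and 62 bases before that of Filip1l. Myl9 encodes the regulatory myosin light chain of smooth muscle, Vcl encodes vinculin, which ties actin to cell adhesions, and Filip1l encodes a filamin-binding protein. A match is a description of the letters and not a site in use. Of the 9 leading genes with a promoter in the table (defined below by their ratio to other cells), 0 had a box in this window, and of the 24 genes for calcium handling in the table, Trpc6 had one.

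The 3 genes of the rule together held a median of 28591 CPM in the Control cells, with a lowest value of 10203 and a highest of 89331. In Dox the median was 28826 CPM, the lowest 10304 and the highest 96344. The cells nearest below the limit had 9887 CPM for Control and 9713 CPM for Dox. Between 8000 and 10000 CPM there were 25 Control and 8 Dox cells, and between 10000 and 12000 CPM there were 20 and 10, so that cells lay on both sides of the limit without a gap. The wider span from 20000 to 30000 CPM held 208 and 88 cells. The limit on Dcn left out 134 Control and 56 Dox cells that were otherwise over the bar, with a median of 9253.5 and 9490.5 UMIs per cell, and the limit on Rpe65 left out 4 in each library. The cells that were kept had a median of 4833.5 UMIs and 2002.5 genes in Control and 5491 UMIs and 2172 genes in Dox, in all 3137593 and 1568447 UMIs. The cell barcodes of the deposited libraries overlapped at 441 sequences, and 0 barcodes were shared among the smooth muscle cells.

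Acta2 (ENSMUSG00000035783, chr19:34241090-34255590, minus strand, GRCm38) encodes smooth muscle alpha-actin. Its level was 20473 CPM (20315 to 20632) for Control and 20738 CPM (20513 to 20964) for Dox, against 343 CPM in all other cells, a ratio of 60.0. Myh11 (chr16:14194535-14291372, minus strand), the smooth muscle myosin heavy chain, was at 4285 CPM for Control and 4743 CPM for Dox and 119.8 times the level in all other cells. Tagln (chr9:45929619-45936058, minus strand), which encodes the actin-binding protein transgelin, was at 7147 and 6577 CPM and 47.9 times the level elsewhere. These 3 values were used to choose the cells and are given as a description. CPM here count molecules and are not divided by gene length, so that levels are compared between cells and not between genes.

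Casq2 and Rgs5 were not part of the rule, although they are measured in the same cells. Casq2 (chr3:102086415-102146514, plus strand) encodes calsequestrin 2, a calcium-binding protein of the sarcoplasmic reticulum. It was at 126 CPM (114 to 139) for Control and 151 CPM (132 to 172) for Dox, and at 0.911 CPM in all other cells, a ratio of 147.7. Fibroblast-type cells had Dcn at 2000 CPM or more, Rpe65 under 10 UMIs, and Acta2, Tagln and Myh11 together under 20 UMIs. With every cell thinned to 2000 UMIs, 19.0% of the Control and 18.7% of the Dox smooth muscle cells had a Casq2 UMI. In fibroblast-type cells the shares were 0.0288% and 0.0258%. Without thinning the shares in smooth muscle cells were 34.95% and 36.7%, and 0.186% and 0.130% in fibroblast-type cells, at median depths close to those of the fibroblast-type cells (4797.5 and 5390 UMIs). Most smooth muscle cells thus had no Casq2 UMI at this depth.

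Rgs5 (chr1:169655501-169695813, plus strand) encodes a regulator of G protein signalling that is also used as a marker of pericytes, which line small vessels. Its level was 8658 CPM (8556 to 8762) for Control and 10030 CPM (9874 to 10188) for Dox, 31.9 times that of all other cells. After thinning, 92.3% of Control and 96.7% of Dox smooth muscle cells had an Rgs5 UMI, and 24.4% and 23.9% of fibroblast-type cells. A further group held cells below the bar with at least 5 UMIs of Rgs5, Kcnj8, Abcc9, Pdgfrb and Notch3 together. Its cells also had Rpe65 under 10 UMIs and Dcn under 2000 CPM. Endothelial-type cells, with at least 10 UMIs and 3000 CPM of Pecam1, Cldn5, Plvap, Egfl7 and Flt1, were left out of it. The group numbered 551 cells in Control and 444 in Dox, and there Rgs5 was at 1960 and 1268 CPM. It is named by its rule only, since its fibroblast markers summed to 16973 CPM (Control) and 18695 CPM (Dox). This sum includes Dcn, which the rule caps in each cell. The pericyte markers of the group summed to 1300.0 and 1291 CPM, and 84.8% and 91.0% of its cells had a Dcn UMI.

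**Figure D1:**
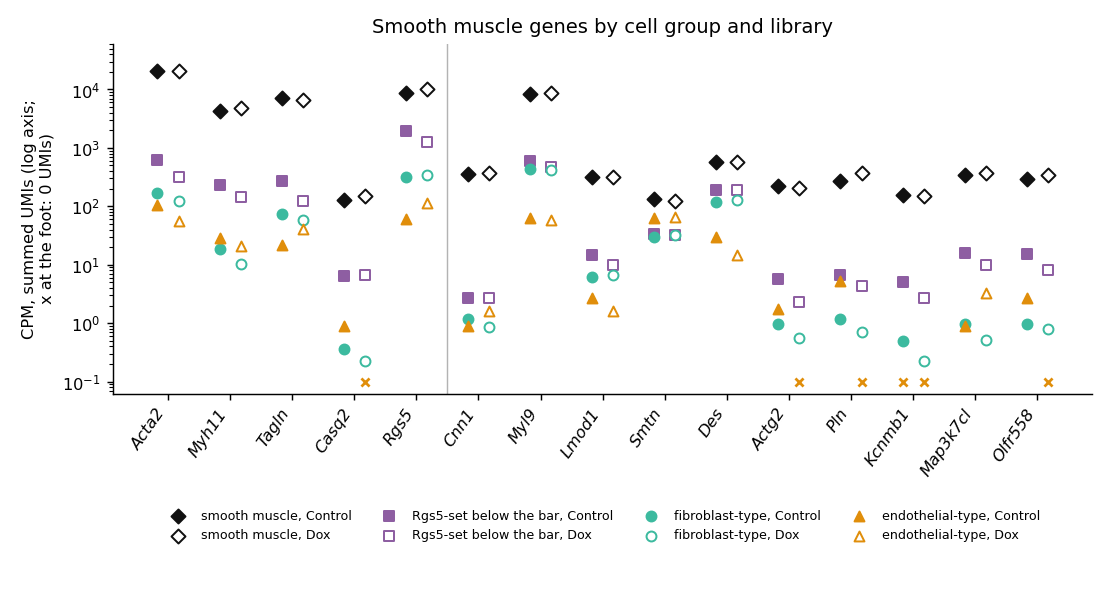
Level in CPM (summed UMIs, log axis) of the 5 marker genes and, right of the line, 10 further smooth muscle genes in smooth muscle cells, the cells below the bar with the Rgs5 set, fibroblast-type cells and endothelial-type cells (at least 10 UMIs and 3000 CPM of Pecam1, Cldn5, Plvap, Egfl7 and Flt1). Filled symbols are the Control and open symbols the Dox library, each 1 value, and crosses at the foot mark 0 UMIs. For every gene shown, the smooth muscle cells in both libraries lie above the other groups. For Acta2, Tagln and Myh11 this is set in part by the rules that define the groups.

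The label was checked against markers of other cells. The markers of skeletal muscle, which also holds calsequestrin and desmin, summed to 7.97 CPM for Control and 6.38 CPM for Dox, with Casq1 as the most abundant and Myh4, Myh1 and Tnnt3 at 0 in both. The 9 endothelial markers summed to 165 and 114 CPM, with Emcn the most abundant, and Pecam1 had 2 UMIs in each library. Summed endothelial markers were lower than in fibroblast-type cells (597 and 606 CPM), yet 31.1% of Control and 23.4% of Dox smooth muscle cells had a UMI of the list. The pericyte markers as a list were higher than elsewhere, with 1893 CPM (Control) and 1947 CPM (Dox), led by Cox4i2, against 462 and 453 CPM in all other cells, and 4 of 9 measured genes at least 4-fold higher, against 6.13% of all genes tested. Within the list, Kcnj8 and Abcc9, which encode the parts of a potassium channel of pericytes, went the other way. In the smooth muscle cells Kcnj8 was at 36.3 CPM (Control) and 33.8 CPM (Dox) and Abcc9 at 16.3 and 5.74 CPM, against 82.3 and 43.4 CPM in all other cells of both libraries.

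Markers of other cell types also had UMIs in the smooth muscle cells, and the source of this RNA was not tested. RPE markers summed to 7613 CPM for Control and 10085 CPM for Dox, led by Ptgds, and Rpe65, held low by the rule, was at 229 and 289 CPM. Melanocyte markers summed to 2629 and 829 CPM, led by Dct, and fibroblast markers to 2758 and 1880 CPM, led by Igfbp4, with Dpt at 0. For scale, Tyrp1, a pigment enzyme of melanocytes and RPE, had a UMI in 47.6% of Control and 16.5% of Dox smooth muscle cells after thinning, and in 45.4% and 15.5% of fibroblast-type cells.

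Ranked by ratio to all other cells, among genes at 50 CPM or more, 15 leading genes were named. Kcnmb1 (chr11:33963013-33973641, plus strand), the beta subunit that tunes the large-conductance calcium-activated potassium channel of smooth muscle, stood first with a ratio of 157, at 156 CPM for Control and 149.8 CPM for Dox. Pln (chr10:53337667-53345987, plus strand) encodes phospholamban, the brake on the calcium pump of the sarcoplasmic reticulum. Its level was 269 CPM (251 to 287) for Control and 371 CPM (342 to 402) for Dox, at a ratio of 149.8. The kinase-related gene Map3k7cl had 346 and 377 CPM and a ratio of 139.7. Cnn1 (chr9:22099216-22109630, plus strand), calponin 1, which binds actin and dampens contraction, had 353 and 371 CPM and a ratio of 139.2.

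Tcap, which encodes telethonin, had 57.4 and 70.1 CPM, and P2rx1, an ATP-gated channel through which sympathetic nerves excite arteries, 68.5 and 98.8 CPM. Olfr558, an olfactory-type receptor, was at 288 and 337 CPM, and the guanylate cyclase gene Gucy2g at 55.1 and 52.3 CPM. Actg2, the gamma-actin of smooth muscle, was at 226 CPM for Control and 205 CPM for Dox. The others were 2210407C18Rik, Casq2, 9530034E10Rik, Xirp1, Nrip2 and Myh11, with ratios between 119.8 and 151. Since the cells were chosen by their contractile genes, these ratios describe them and test nothing.

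Of the 7993 genes with at least 50 UMIs over both libraries, 490 (6.13%) were at least 4-fold higher in the smooth muscle cells than in all other cells. The fixed lists differed in how many members were among them. For the contractile apparatus it was 28 of 40 (median log2 ratio 3.08), and for calcium and excitation 24 of 31 measured genes (4.49). The contractile list includes Acta2, Tagln and Myh11, so its count is partly set by the choice of cells. The counts of all these lists are a description and no test. Receptors and cGMP signalling had 15 of 29 (2.18), transcription factors and Notch 13 of 31 (1.44), and mural and pericyte genes 11 of 19 (2.63). For basement membrane and matrix the count was 8 of 46 with a median of -0.63, and for genes of dedifferentiation 1 of 24 with a median of -1.52. Genes of p53 targets, the interferon response, oxidative phosphorylation and ribosomal proteins had 0 members above 4-fold.

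Among the contractile genes, Myl9 was at 8218 CPM for Control and 8564 CPM for Dox, and Mylk, the myosin light chain kinase, at 2341 and 2586 CPM. The tropomyosins Tpm1 (4608 and 4803 CPM) and Tpm2 (2901 and 2955 CPM) and the intermediate filament gene Des (565 and 581 CPM) were likewise at close levels in both libraries. Nonmuscle forms were lower than in other cells, with a log2 ratio of -0.65 for Myh9, -0.66 for Myh10 and -1.02 for Myl12a. The list thus held smooth muscle forms that were high in these cells beside forms that most cells use.

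The calcium genes covered entry, release and removal. Atp2a2, the calcium pump of the reticulum, was at 600 CPM for Control and 733 CPM for Dox. Cacna1c, the pore of the L-type calcium channel, had 38.3 and 55.5 CPM, and the store channel gene Ryr2 15.3 and 17.9 CPM, with 2 UMIs of Ryr3 in Control and 0 in Dox. Gja4, a connexin of arterial gap junctions, was at 827 and 751 CPM against 150.7 and 122.7 CPM in the endothelial-type cells, and Gja5, a connexin of arterial endothelium, had 2 and 0 UMIs in the smooth muscle cells. The potassium channel genes Kcna5 (99.8 and 123 CPM) and Kcnk3 (60.9 and 73.3 CPM) and the chloride channel gene Ano1 (183 and 232 CPM) were the other channels described.

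For the cGMP branch, Gucy1a1 and Gucy1b1, the subunits of the nitric oxide receptor, were at 504 and 326 CPM in Control and 539 and 376 CPM in Dox. The phosphodiesterases Pde3a (654 and 810 CPM) and Pde5a (359 and 437 CPM), which break down cyclic nucleotides, and the cGMP-dependent kinase Prkg1 (193 and 220 CPM) were measured in both. Among receptors for vasoconstrictors, Ednra, the endothelin receptor, was at 127 and 133 CPM. Npy1r, the neuropeptide Y receptor, was at 39.8 and 49.7 CPM, Adra1b at 8.61 and 12.8 CPM and Agtr1a at 5.10 CPM in both, and Adra2a had 0 UMIs.

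Myocd, the gene of myocardin, was at 61.2 CPM (52.8 to 70.5) for Control and 69.5 CPM (57.1 to 83.8) for Dox, with a log2 ratio of 6.66 over all other cells. Its partner Srf was at 19.1 and 22.95 CPM, with a log2 ratio of 1.44. Notch3, the Notch receptor of mural cells, had 338 and 403 CPM, and its target gene Heyl 292 and 301 CPM. Klf4, which in arterial injury is known to repress contractile genes, was at 990 and 1120 CPM. Klf4 is also an immediate early gene, and other genes of that kind were high after the dissociation (Fos at 4678 and 4750 CPM, Atf3 at 2761 and 3072 CPM), so that their part in its level was not tested.

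Rgs5 varied widely among the smooth muscle cells. Across single cells Rgs5 had a lowest value of 0, a median of 7267 and a highest of 50420 CPM in Control, and 0, 8893 and 65353 CPM in Dox, whereas Acta2 had 3205, 19025 and 50247 CPM in Control and 1357, 19095 and 54183 CPM in Dox. Acta2 is part of the rule, which sets a lower limit to it, so that its range cannot be set against that of Rgs5. Rgs5 was at 0 in some cells of each library. To compare cells at equal depth, all were thinned to 2000 UMIs apiece, which left 601 Control and 273 Dox cells, and these were ordered by Rgs5 and cut into 3 groups of equal size within each library (low, middle and high, 200 or 201 cells in Control and 91 in Dox). The cuts divide a range and not types, since 79 and 61 Control and 36 and 28 Dox cells had Rgs5 within 2 UMIs of a cut.

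**Figure D2:**
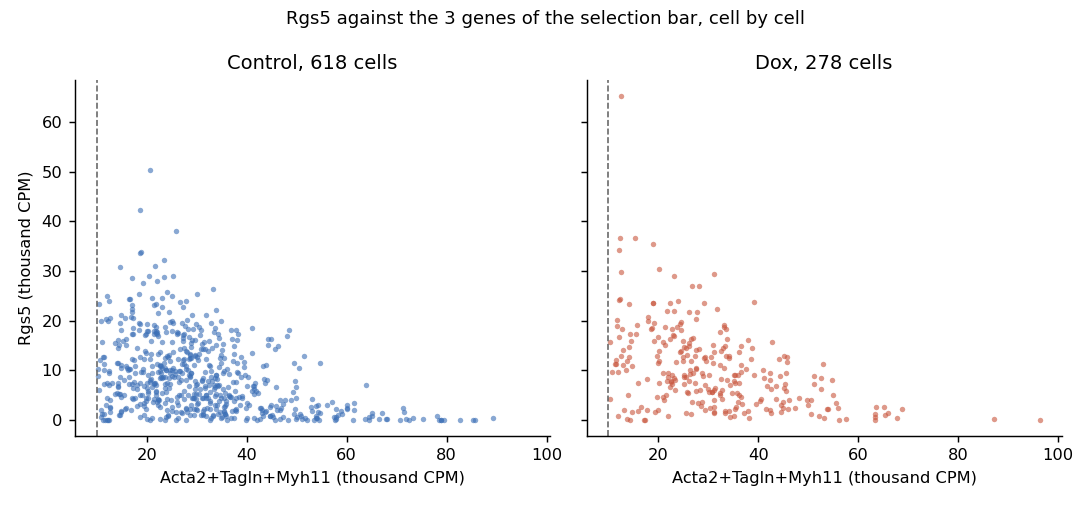
Rgs5 against the sum of Acta2, Tagln and Myh11, both in units of 1000 CPM, for each of the 618 Control and 278 Dox smooth muscle cells (1 point per cell, not thinned). The dashed line is the limit of 10000 CPM, and most cells with the highest sums lie low on the Rgs5 axis in both libraries.

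Rgs5 itself was at 1639, 7335 and 17910 CPM in the low, middle and high groups of Control and at 2429, 9132 and 19555 CPM in those of Dox, as the ordering fixes. Casq2 followed it, with 54.7, 125 and 200 CPM in Control and 65.9, 104 and 214 CPM in Dox. The log2 ratio of high over low was 1.87 (1.17 to 2.62) and 1.70 (0.74 to 2.77). Tagln ran the other way, with 10729, 5168 and 4425 CPM in Control and 9615, 5467 and 3736 CPM in Dox. Acta2 fell less steeply, from 24493 to 17478 CPM in Control and from 23368 to 15593 CPM in Dox, which is under 2-fold.

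Of the 2476 genes with enough UMIs in Control, 2.99% were at least 2-fold higher and 2.63% at least 2-fold lower in the high than in the low group. In Dox it was 2.83% and 2.4% of 1166 genes. Of the contractile list, 0 of 39 measured genes were at least 2-fold higher and 6 lower in Control, and 0 of 33 higher and 8 lower in Dox. This list includes Acta2, Tagln and Myh11, the genes of the rule, and Tagln is among the lower genes in both libraries. The counts are thus a description and no test. The pericyte markers summed to 1465, 1790 and 2425 CPM from the low to the high group in Control and to 1582, 2093 and 2429 CPM in Dox. Of the pericyte markers measured, 5 of 6 in Control and 4 of 5 in Dox were higher in the high group, with 1 past 2-fold in each, Ndufa4l2. Of all genes measured, 56.3% in Control and 49.3% in Dox were higher there, and counts of 6 and 5 genes are small.

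The genes described next for their course along Rgs5 were chosen after their values were seen, and Kitl, Gas1, Ptgis, Timp4 and Sorbs2 among them are in none of the fixed lists. Ndufa4l2, a relative of a respiratory chain subunit, was at 117, 145 and 388 CPM in Control and 98.9, 247 and 390 CPM in Dox. Kitl, the ligand of the Kit receptor that pigment cells depend on, was at 149, 355 and 413 CPM (Control) and 165, 324 and 489 CPM (Dox). Ccnd1, cyclin D1, had 82.1, 215 and 420.0 CPM in Control but 137, 109.9 and 379 CPM in Dox, so that in Dox the middle group was not above the low one. Ano1 (77.1 to 280.0 and 132 to 302 CPM from low to high) and Gas1 (82.1 to 280.0 and 93.4 to 335 CPM) went the same way.

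The genes highest in the Rgs5-low cells included further contractile genes. Cnn1 was at 607, 235 and 115 CPM in Control and 554.9, 247 and 154 CPM in Dox, and Actg2 at 420.4, 155 and 57.5 CPM and 335, 159 and 49.5 CPM. Ptgis, the synthase of the vasodilator prostacyclin, went from 500 to 25 CPM in Control and from 467 to 27.5 CPM in Dox, with log2 ratios of -4.32 (-5.40 to -3.41) and -4.09 (-5.75 to -2.81). Timp4, an inhibitor of matrix proteases, went from 231 to 45 CPM in Control and from 302 CPM to 0 UMIs in Dox. Sorbs2, an adaptor of actin fibres (856 to 195 and 907 to 198 CPM), and Ppp1r14a, an inhibitor of myosin phosphatase (570 to 208 and 467 to 159 CPM), fell as well.

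**Figure D3:**
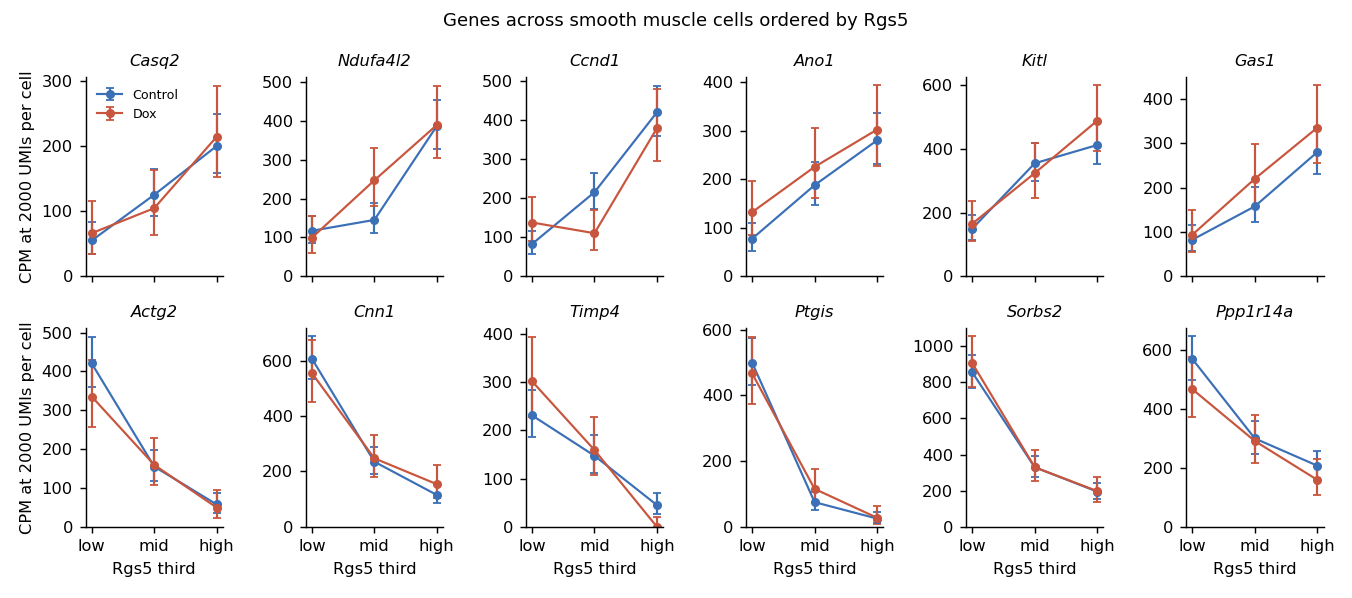
CPM after thinning each cell to 2000 UMIs, in the Rgs5-low, middle and high groups of smooth muscle cells (x axis), for 6 genes higher (top) and 6 lower (bottom) in the Rgs5-high cells. Points are summed values of 1 library, bars the 95% Poisson intervals of counting error, and each panel has its own y axis from 0. Control and Dox follow each other in most panels, with Ptgis near 500 CPM at the left and near 25 CPM at the right in both.

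Not all smooth muscle genes took part. In Control, Pln was at 259, 293 and 258 CPM and Kcnmb1 at 182, 145 and 160 CPM across the 3 groups, and the log2 ratio of high over low was -0.01 (-0.41 to 0.40) for Pln and -0.18 (-0.69 to 0.32) for Kcnmb1. In Dox these ratios were -0.23 (-0.79 to 0.33) and -0.31 (-1.21 to 0.58). The pattern found in Control was also seen in Dox, whose cells the Control ordering had not used. Of 36 genes at least 2-fold higher in the Rgs5-high cells of Control and measured in Dox, 35 had the same direction there and 13 were past 2-fold, and of 26 at least 2-fold lower, 25 had the same direction and 16 were past 2-fold. Over all genes measured in both, 64.8% had the same direction.

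Other values moved with the ordering. The macrophage markers summed to 858, 270 and 163 CPM in Control and 885, 115 and 98.9 CPM in Dox from the Rgs5-low to the high group, with Cd74 at 271 CPM and 533 CPM in the low groups. The fibroblast markers summed to 2871, 2225 and 1710 CPM in Control and 1885, 1841 and 1577 CPM in Dox, with 0 of 6 and 0 of 1 measured genes higher in the high group and 3 and 0 past 2-fold lower. Median depth before thinning was 4920, 4803.5 and 4967.5 UMIs in Control and 5625, 5335 and 5505 UMIs in Dox, without a common order. The part of macrophage and fibroblast RNA in the differences was not tested.

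Ordered by the sum of Acta2, Tagln and Myh11 instead, Rgs5 was at 11687, 9978 and 5170 CPM from the lowest to the highest group in Control and at 14440, 10346 and 6330 CPM in Dox. This ordering, which uses the genes of the rule, had 2.56% of 2458 genes at least 2-fold higher and 2.4% lower in Control, and 3.37% and 2.76% of 1158 genes in Dox. Malat1, an RNA of the nucleus, was at 16619 CPM in the lowest group of Control against 4628 CPM in the highest, and at 27940 against 4242 CPM in Dox. Median depth rose with the sum, from 4652 to 4803.5 and 5282.5 UMIs in Control and from 4947 to 5460 and 5932 UMIs in Dox. Macrophage markers went from 699 to 213 CPM in Control and from 786 to 93.4 CPM in Dox, and endothelial markers from 326 to 52.5 CPM and from 209 to 38.5 CPM. Their part in the differences along the sum was not tested. Along Rgs5 Malat1 went in opposite directions, from 13045 to 6855 CPM in Control and from 11786 to 16209 CPM in Dox. Its part in these differences was not tested.

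The comparison of Dox with Control asked what had changed in the smooth muscle cells 7 days after the injection. Of 7993 genes, 20 (0.25%) were at least 2-fold higher and 112 (1.4%) at least 2-fold lower in Dox, by log2 ratios with 0.5 counts added, and 4296 (53.7%) were higher by any amount. The median log2 ratio over all genes was 0.02. With 1 library each, passing 2-fold is a limit of size and not a test.

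Contractile genes were within 2-fold of their Control level. Of the 40 listed, 0 were past 2-fold in either direction, a count that the background shares would give as well, 25 were higher in Dox (53.7% of all genes), and the median log2 ratio was 0.02, with a range from -0.51 (Myh9) to 0.35 (Ldb3). The bar sets the same lower limit on the sum of Acta2, Myh11 and Tagln in both libraries, and their ratios are a description. Acta2 had a log2 ratio of 0.02, Myh11 of 0.15 (0.11 to 0.19), Tagln of -0.12 (-0.15 to -0.09) and Rgs5 of 0.21 (0.18 to 0.24). Casq2 had 0.26 (0.02 to 0.50), but 0.02 when cells were thinned. For calcium and excitation, 23 of 31 genes were higher (53.7% of all genes) and the median was 0.17, with Pln at 0.47 (0.31 to 0.62) and Cacna1c at 0.54 (0.12 to 0.95). Past 2-fold was 1 gene (1.4% of all genes past 2-fold lower), Abcc9, which fell from 51 to 9 UMIs.

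Receptors and cGMP signalling had a median of 0.13 (22 of 29 higher, 0 past 2-fold upward and 1 downward, the fibroblast receptor gene Pdgfra, from 57 to 9 UMIs). Transcription factors and Notch had a median of 0.09 (22 of 31 higher, 0 past 2-fold), and mural and pericyte genes -0.01 (9 of 19 higher, 1 past 2-fold, again Abcc9). Over all genes, 53.7% were higher, 0.25% past 2-fold higher and 1.4% past 2-fold lower. The counts of 0 and 1 past 2-fold in these lists are too small to set against those shares. In fibroblast-type cells of the same libraries the contractile list had a median of -0.00. There Acta2 was at -0.44, Myh11 at -0.88 and Pln at -0.75, whereas Des was at 0.10, Lmod1 at 0.11 and Csrp1 at 0.12. The sum of Acta2, Tagln and Myh11 is capped in fibroblast-type cells by their definition.

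**Figure D4:**
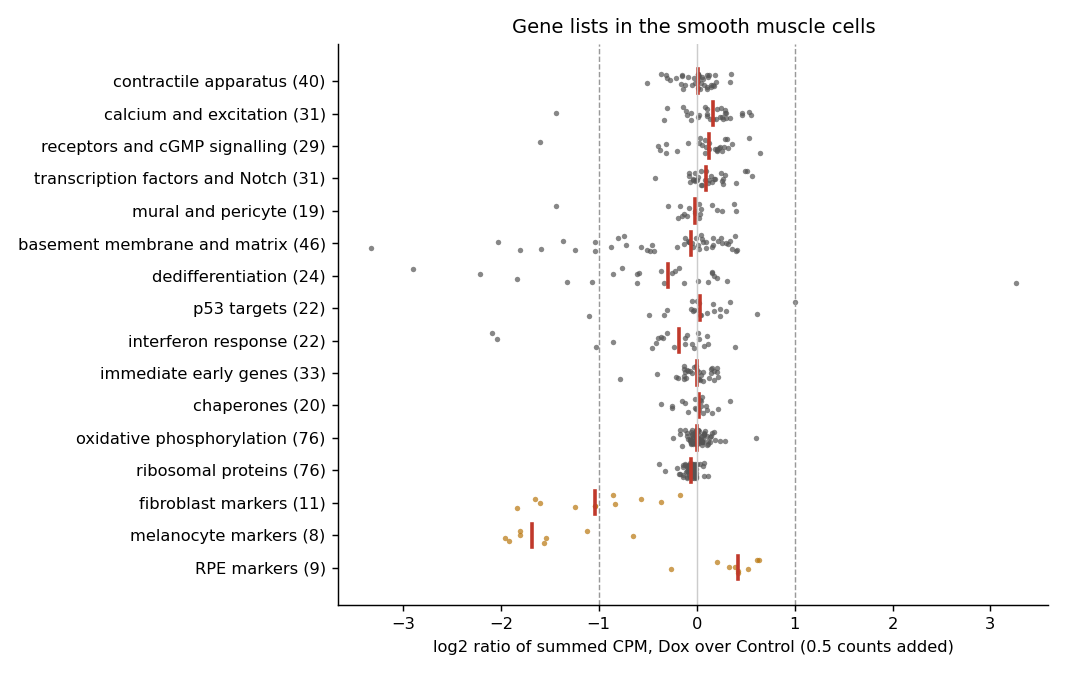
Log2 ratio of Dox over Control (0.5 counts added) in the smooth muscle cells for the measured members of 13 function lists and of 3 marker lists of other cell types, with the number of genes in parentheses. Each point is a gene, the red bars are list medians, and the dashed lines mark 2-fold. The contractile genes lie between the dashed lines, while fibroblast and melanocyte markers lie to the left.

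Doxorubicin damages DNA, and p53 is the factor that such damage activates. The paper states that the injected Dox usually reaches only a part of the RPE area. Smooth muscle cells inside and outside that area were not told apart here. Of 22 measured p53 targets, 14 were higher in Dox (53.7% of all genes), the median was 0.03, 1 was past 2-fold upward and 1 downward, too few to set against the background shares. Cdkn1a, which encodes the cell cycle inhibitor p21, was at 958 CPM for Control and 942 CPM for Dox, a log2 ratio of -0.02 (-0.12 to 0.07), at a level 1.73 above all other cells on the log2 scale. Mdm2, the ligase that restrains p53, had 30.9 and 36.3 CPM, and Bax, a gene of mitochondrial cell death, 87.7 and 94.4 CPM. Ercc5, a nuclease of DNA repair, rose to 2-fold on 26 UMIs in each library, and Gdf15, a stress cytokine, fell by 1.11 on the log2 scale, from 77.1 to 35.7 CPM, with -0.71 in fibroblast-type cells.

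The immediate early genes (0 of 33 past 2-fold, median -0.00), the chaperones (0 of 20, median 0.03) and the genes of oxidative phosphorylation (0 of 76, median 0.01) had medians near 0. Their counts of 0 are near the shares over all genes, 0.25% past 2-fold higher and 1.4% lower. Ribosomal protein genes had a median of -0.06 with 6 of 76 higher (53.7% of all genes). Of 22 interferon response genes, 6 were higher and 3 fell past 2-fold, Cxcl10, Ifit1 (55 to 6 UMIs) and Irgm1 (67 to 16 UMIs), at a median of -0.18, against 53.7% of all genes higher and 1.4% past 2-fold lower. The median turned to 0.051 when cells were thinned to 2000 UMIs. In fibroblast-type cells the median of that list was 0.00.

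The rises were few. Serpina3n (chr12:104406729-104414329, plus strand), a secreted inhibitor of serine proteases, rose from 34 UMIs in 30 Control cells to 165 UMIs in 109 Dox cells, or from 10.8 CPM (7.504 to 15.1) to 105 CPM (89.8 to 123), a log2 ratio of 3.28 (2.74 to 3.86). It rose in all other cells too, by 3.07, and by 1.21 in fibroblast-type cells. A2m, the protease inhibitor alpha-2-macroglobulin, rose from 67 to 133 UMIs, by 1.99 (1.56 to 2.44), with 1.98 in all other cells and 1.43 in fibroblast-type cells. Levels of both genes in all other cells were above those in smooth muscle, at 271 CPM for Serpina3n and 193 CPM for A2m. The part of RNA from those cells in these rises was not tested.

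Xcl1, a chemokine of lymphocytes, went from 1 to 88 UMIs, but 85 of these were in 1 Dox cell, and without that cell 3 UMIs remained. Cox8b, a subunit of cytochrome oxidase, rose from 30.3 to 61.2 CPM, by 1.02 (0.59 to 1.44), with 0.81 in fibroblast-type cells and 0.83 in all other cells, where its level was higher (281 CPM). Without the Dox cell with the most UMIs its ratio was 0.96, within 2-fold. The other named genes with the largest ratios stayed within 2-fold, among them Tcim at 0.86 (0.50 without 1 Dox cell with 18 of its 79 UMIs), Clu at 0.80, Trf at 0.78 and Pcsk1 at 0.77 (0.40 to 1.15). Pcsk1, a protease that processes hormones, was one of the few of them enriched in smooth muscle, with 41.8 and 71.4 CPM against 0.617 CPM in all other cells. For Trf, 738 of 3681 UMIs were in 1 Dox cell, and its ratio was 0.47 without that cell.

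Among genes below the level set for naming, chosen after their values were seen, Igfbp3 went from 14 to 68 UMIs, but 60 of the Dox UMIs were in 1 cell and 4 Dox cells had any. Ndst3 (23 to 29 UMIs), Slc47a2 (28 to 37 UMIs) and Apcdd1 (37 to 38 UMIs) were past 2-fold upward and over 4-fold higher in smooth muscle than elsewhere. Within 2-fold, Ccrl2 (235 to 376 CPM, 0.68), Fbxl22 (244 to 389 CPM, 0.67) and Ephx3 (80.0 to 119 CPM, 0.57) were smooth muscle genes with intervals above 0, and Ccrl2 had 64 of its 590 Dox UMIs in 1 cell.

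The genes that fell were mostly genes that other cells hold at higher levels. Of the 112, 103 (92.0%) were lower in smooth muscle than in all other cells, against 44.1% of all genes tested, at a median log2 ratio of -1.30 over other cells. Lum, a matrix proteoglycan of fibroblasts and keratocytes, fell from 437 to 61 UMIs, by 1.84 on the log2 scale, and was at -0.06 in fibroblast-type cells. After thinning, 10.6% of Control and 4.40% of Dox smooth muscle cells had a Lum UMI, against 87.0% and 87.1% of fibroblast-type cells. Alpl, alkaline phosphatase, fell from 198 to 23 UMIs (-2.11, -2.80 to -1.48), and Cxcl10, an interferon-induced chemokine, from 358 to 43 UMIs (-2.06, -2.55 to -1.60), both with ratios slightly above 0 in fibroblast-type cells (0.19 and 0.14).

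Of the 11 fibroblast markers measured, 0 were higher in Dox (53.7% of all genes) and 6 fell past 2-fold (1.4% of all genes), and the median was -1.04, whereas in fibroblast-type cells it was 0.03. Dcn, which the rule itself holds under 2000 CPM, is among the 11 but not among the 6. The stricter limits given next cap Dcn again, so that the values of this list there are partly set by the choice of cells. Members with Dcn at 500 CPM or more, which the rule allows up to 2000 CPM, numbered 76 in Control and 17 in Dox. When Dcn was held under 500 CPM, Rpe65 under 3 UMIs and Pecam1, Ptprc and Mlana under 3 UMIs each, 372 Control and 185 Dox cells were left, the median of the fibroblast markers was -0.13, the ratio of Lum was -0.29, and 56 genes were at least 2-fold lower, of which 38 were among the 112. Under this setting the smooth muscle share was 1.84% in Control and 1.198% in Dox.

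Of the 46 measured genes of basement membrane and matrix, 0 rose (0.25% of all genes) and 8 fell past 2-fold (1.4% of all genes), namely Mfap4, Fbln1, Fbln5, Mfap5, Ltbp4, Col1a1, Col3a1 and Mgp, and the median was -0.06, or 0.02 under the stricter limits. Mgp, the matrix Gla protein that inhibits calcification in arteries, fell by 1.04 (0.91 to 1.17 in size), from 813 to 397 CPM, and by 0.70 under the stricter limits, which is within 2-fold. Among its genes of collagen IV and the laminins, Col4a1 was at 114 CPM (Control) and 108 CPM (Dox), Col4a2 at 87.0 and 93.1 CPM, and Lama5 at 96.9 CPM (86.3 to 108) and 120.5 CPM (103.9 to 139). Lamc1 was at 63.7 and 84.2 CPM, with a log2 ratio of 0.40, and Lamc3 at 20.4 and 12.1 CPM, with a log2 ratio of -0.73. Col4a4, another collagen IV gene, outside the list and named after its values were seen, had 32 and 36 UMIs, a log2 ratio of 1.17, and 0.92 without 1 Dox cell.

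Of 24 measured genes of dedifferentiation, 1 rose (Serpina3n) and 5 fell past 2-fold (Spp1, Ccl7, Lum, Lgals3 and Ly6a), against 0.25% and 1.4% of all genes. Spp1, osteopontin, fell from 478 to 51 UMIs. Ccl7, a chemokine, fell from 96 to 6 UMIs, of which 42 in Control were in 1 cell. The median was -0.29, and -0.04 under the stricter limits. Vim, vimentin, was at 3521 CPM for Control and 3826 CPM for Dox.

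Of the 8 melanocyte markers measured in the smooth muscle cells, 0 were higher in Dox (53.7% of all genes). Past 2-fold lower were 7 of them (1.4% of all genes). Dct had 2904 UMIs in Control and 414 in Dox, a log2 ratio of -1.81 in smooth muscle and -1.81 in fibroblast-type cells. Tyrp1 was at -1.96 and -2.06, and Pmel at -1.81 and -2.21. S100b of the same list fell from 699 to 92 UMIs in smooth muscle, with -0.65 in fibroblast-type cells and -0.91 in all other cells. The summed melanocyte markers had a ratio of -1.67 in smooth muscle, -1.66 in fibroblast-type cells and -1.15 in all other cells. For the summed RPE markers these ratios were 0.41, 0.36 and 0.41. The part of RNA from melanocytes and RPE cells in these values was not tested.

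Some falls rested on few cells. Ccl4, a chemokine of leukocytes, went from 475 to 22 UMIs, but 314 of the Control UMIs were in 1 cell, and the ratio was -1.88 without it. Of the other genes past 2-fold downward, 1 Control cell held 154 of 241 UMIs of the fibroblast marker Myoc, and single Control cells held 78 of 124 UMIs of Ccl3 and 66 of 113 of Penk, both named after their values were seen. Without that cell the log2 ratio was -0.19 for Myoc, -1.30 for Ccl3 and -0.36 for Penk. When the cell with the most UMIs of each gene was left out, 86 of the 112 lower genes and 15 of the 20 higher genes were still past 2-fold. Of the 6 fibroblast markers 4 were, without Myoc and Col3a1 (-0.81), of the 8 matrix genes 6, without Col3a1 and Mgp (-0.92), of the 5 genes of dedifferentiation 4, without Ly6a (-0.83), and of the 3 interferon response genes 2, without Irgm1 (-0.90). Lyz2, the macrophage lysozyme, had 117 of 516 Control UMIs in 1 cell (-1.80, and -1.43 without it). Iglv1, an immunoglobulin light chain segment, had 168 UMIs in 19 Control cells and 0 in Dox, and was at least 28.0-fold lower when set against a floor of 3 counts in the Dox library. Its log2 ratio was -6.32 in all other cells. Cited1 and S100b, with ratios of -2.02 and -1.93, completed the 12 largest falls. Of the genes past 2-fold downward, Gm37800, Pde10a and Cbr2 were over 4-fold higher in smooth muscle than elsewhere (47 to 11, 63 to 15 and 86 to 21 UMIs), named here after their values were seen. Each of these 3 was within 2-fold without 1 cell, at -0.92, -0.97 and -0.82.

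**Figure D5:**
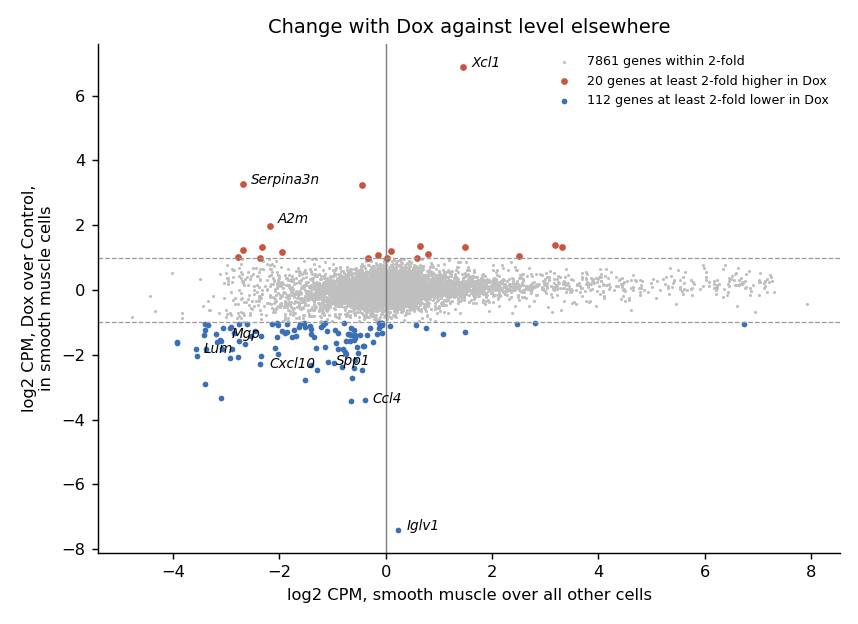
Log2 ratio of Dox over Control in smooth muscle cells (y axis) against the log2 ratio of smooth muscle over all other cells (x axis) for the 7993 genes tested, 1 point per gene. Red points are the 20 genes at least 2-fold higher and blue points the 112 at least 2-fold lower in Dox, and dashed lines mark 2-fold. Most blue points lie left of 0, at genes held more by other cells.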

How the data were processed

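The authors aligned the reads of 5′ single-cell libraries to the mouse genome with Cell Ranger 4.0.0 (build mm10), per the submitters' processing notes and file headers, and deposited raw counts of UMIs per gene and cell, 20381 cells in Control and 15649 in Dox. Cells with over 500 UMIs, 200 to 6000 genes and a mitochondrial share under 0.2 were kept, without a doublet caller. UMIs were summed per group and library. Ratios between libraries used genes with at least 50 UMIs over both and 0.5 counts added for calls of 2-fold. Printed ratios of single genes mostly had none added. The ratio of Lamc3 and several ratios without the cell with the most UMIs, such as those of Ccl3, Penk and Gm37800, had 0.5 counts added. The members and the gene lists were chosen with earlier results of these data known. Named were the markers, the 15 leading genes, the 12 largest rises and falls at 50 CPM or more in a library, and members of the lists. Mkl1, Mkl2, Cyr61 and Ctgf were not found under these spellings, and some genes of the lists are not reported here singly. Positions were taken from GENCODE vM21 on GRCm38, and promoters from RefSeq. Alternatives were a higher bar, stricter limits on other types, a mitochondrial share under 0.1, a complexity above 0.8, thinning to 2000 UMIs, CPM without mitochondrial genes, means of the cells' own CPM, centring, other UMI minimums and 0.1 counts added. Python 3.11.15 with numpy 2.4.6, scipy 1.17.1, pandas 2.3.3 and matplotlib 3.10.9 was used, and the steps were tested on simulated data. The study's clustering was not repeated.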

Additional observations from a re-analysis of the deposited data

Results flagged for a closer look

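Among 532 tested genes that belong to the lists, lead the smooth muscle cells, changed most or are among those chosen after their values were seen, the log2 ratio of Dox over Control went one way in the smooth muscle cells and the other way in fibroblast-type cells of the same libraries in 54, with both intervals of counting error away from 0. With 1 library per condition the difference was not tested. In the pairs of log2 ratios given here, smooth muscle cells come first and fibroblast-type cells second.

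Higher in smooth muscle and lower in fibroblast-type cells were 21 genes. The contractile and calcium genes among them included Pln (0.47 and -0.75) and Myh11 (0.15 and -0.88). Myh11 is a gene of the rule that chose the cells, and the definition of fibroblast-type cells caps it as well. The others of this kind were Ppp1r12a (0.13 and -0.10), Tpm1 (0.060 and -0.10) and Myl9 (0.059 and -0.05). Of the matrix, receptor and transcription factor lists they were Lama5 (0.31 and -0.72), Sncg (0.29 and -0.70), P2ry14 (0.26 and -0.27), Mef2c (0.14 and -0.50) and Tbx2 (0.40 and -0.16). The antigen-presenting markers Cd74 (0.32 and -1.39), H2-Aa (0.44 and -1.44) and H2-Eb1 (0.64 and -1.63) went the same way, as did Ndufb8 (0.19 and -0.05) of oxidative phosphorylation. The others were Pcp4l1 (0.16 and -0.68), 2210407C18Rik (0.41 and -0.47), Ephx3 (0.57 and -0.99), Malat1 (0.17 and -0.22), Ccrl2 (0.68 and -0.59, with 0.52 in smooth muscle without 1 Dox cell), Tcim (0.86 and -0.25, with 0.50 in smooth muscle without 1 Dox cell) and Xcl1 (7.46 and -0.61, with 85 of 88 Dox UMIs of smooth muscle in 1 cell). The list of macrophage and antigen-presenting markers as a whole went both ways in smooth muscle cells. Of its 7 measured genes, 3 were higher in Dox and 3 fell past 2-fold (53.7% and 1.4% of all genes), at a median of -0.21. Those that fell were C1qb (117 to 8 UMIs), C1qa (140 to 13 UMIs) and Lyz2 (516 to 74 UMIs).

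Lower in smooth muscle and higher in fibroblast-type cells were 33 genes. Of the matrix list they were Bgn (-0.51 and 0.16), Col5a2 (-0.91 and 0.08), Eln (-0.75 and 0.07), Fbln5 (-1.86 and 0.09), Loxl1 (-0.46 and 0.07), Mfap5 (-1.62 and 0.11), Mgp (-1.04 and 0.09), Sparc (-0.20 and 0.11), Col1a1 (-1.26 and 0.04), Col1a2 (-0.58 and 0.04) and Col3a1 (-1.05 and 0.10), and of the other fibroblast markers Cygb (-1.04 and 0.20), Igfbp4 (-0.37 and 0.28) and Myoc (-1.66 and 0.03). Without 1 Control cell, which held 154 of its 241 UMIs, Myoc was at -0.19 in smooth muscle. The ratio of Cygb in smooth muscle reversed under the stricter limits on RNA of other types. Among immediate early genes Egr1 (-0.090 and 0.07), Ier2 (-0.21 and 0.05), Jun (-0.067 and 0.08), Nr4a1 (-0.12 and 0.13) and Zfp36 (-0.19 and 0.01) were lower, and among genes of dedifferentiation Cxcl12 (-0.25 and 0.04) and Ly6a (-1.09 and 0.07). The others were Alpl (-2.11 and 0.19), Cxcl10 (-2.06 and 0.14), Ifit1 (-2.20 and 0.32), Abcc9 (-1.50 and 0.24), Ccn2 (-1.19 and 0.25), Serpine2 (-0.91 and 0.16), Crispld2 (-0.53 and 0.04), Myh9 (-0.51 and 0.07), Aspn (-0.19 and 0.43), Emcn (-0.52 and 0.11), Dnajb1 (-0.26 and 0.09) and Rpl13a (-0.12 and 0.03).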

How the results depend on the processing

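No paired analysis was possible because each condition has 1 library. The share of smooth muscle cells was 2.38% in Control and 1.42% in Dox with a bar of 40 UMIs and 20000 CPM, and 1.84% and 1.198% with the stricter limits on RNA of other types, in each case higher in Control. Counts past 2-fold moved most with the filter on UMIs per gene. At 20 UMIs there were 136 genes higher and 293 lower in Dox, and at 100 UMIs 3 and 62. With the mean of the cells' own CPM 34 genes were higher. Lower genes numbered 56 under the stricter limits and 44 after thinning. Of the 112 lower genes, 38 (33.9%) stayed past 2-fold under the stricter limits, and of the 20 higher genes 5 (25%), and after thinning 30 (26.8%) and 3 (15%), with fewer cells or UMIs and fewer genes tested. Cygb, a fibroblast marker, was at -1.04 and reversed to 0.12 under the stricter limits. Among the list medians, calcium and excitation was 0.28 and the interferon response 0.051 after thinning. Oxidative phosphorylation was -0.023 under the stricter limits, -0.013 after thinning and -0.015 after centring, and ribosomal proteins -0.029 with the higher bar, -0.0070 under the stricter limits and -0.078 after centring. The causes were not tested. The contractile median stayed between -0.01 and 0.02 in all settings, and the ratio of Serpina3n between 3.14 and 3.75. Leaving out the cell with the most UMIs of a gene was chosen after seeing the data. Depth left 7993 genes with enough UMIs, so that receptors with few molecules could not be compared.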
